A study of Mus musculus with 4 samples.

Results

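Toll-like receptors are innate immune receptors for microbial and nucleic acid ligands, and 10 genes that encode such receptors or their co-receptors are described here in myeloid cells of the mouse corpus callosum. They were chosen by name: Tlr1, Tlr2, Tlr3, Tlr4, Tlr7, Tlr9, Tlr13, Cd14, Cd180 and Ly86. All 10 were listed in each of the 4 count tables, which together held 16342 genes. The week 5 libraries came from male C57BL/6 mice given cuprizone, which binds copper and leads to death of oligodendrocytes and demyelination. The week 0 libraries came from untreated males of the same strain. There were 2 libraries of each, all from mice labelled as 13 weeks old, and cells were sorted on CD11b, an integrin subunit carried by myeloid cells. The labels do not say that libraries came from separate animals, nor how many animals each held, so the spread behind each p-value is that between libraries and may be technical. Levels are counts of unique molecular identifiers (UMIs, 1 per captured RNA molecule, read at the 3′ end) per 1000000 UMIs, written CPM. Transcript length does not enter such a count.

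Each Toll-like receptor has a leucine-rich ectodomain that binds ligand and a cytoplasmic domain that recruits adaptors, chiefly MyD88 and TRIF, upstream of NF-kB and interferon regulatory factors. TLR2, paired with TLR1 or TLR6, and TLR4 act at the cell surface on bacterial lipoproteins and lipopolysaccharide, whereas TLR3, TLR7, TLR9 and TLR13 act in endosomes on RNA or DNA. CD14 hands lipopolysaccharide and other ligands to several of them, and CD180 with its partner MD-1, the product of Ly86, forms a related surface complex. Microglia, the resident macrophages of the brain, are known to carry many of these receptors.

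The tables held 2415001 to 6559032 UMIs over 1000 barcodes each, and 6 barcode sequences of 4000 occurred in more than 1 library. After filtering, 3707 cells fell into 13 clusters, of which 7 with 3342 cells were microglia-like. The median microglia-like cell held 5181.5 and 2211 UMIs in week 5 replicates 1 and 2, against 1495 and 3912 in week 0 replicates 1 and 2, and this order of replicates holds below. The 14 microglia markers summed to 29828 and 29630.5 CPM of total UMIs at week 5 against 38084 and 42106 at week 0, and all 14 were lower in both week 5 libraries. A cluster led by Spp1, Apoc1 and Fabp5 was kept apart because the monocyte marker Fn1 was among its 10 leading genes. It had no microglia marker among them, but neither had 5 of the 7 microglia-like clusters, and its summed microglia markers stood at 12556 CPM against 605 CPM for the next class. This choice lowers the log2 fold change of Tlr2 (0.69, against 1.08 with the cluster added) and changes the call of none of the 10 genes. This Spp1-led cluster held 19.4% and 2.84% of cells at week 5 against 0 of 926 and 0 of 905 at week 0, which allows shares of up to 0.324% and 0.331%. The clusters within the microglia-like cells also differed. The cluster led by Ccl4 and Ccl3 had 176 and 130 cells at week 5 against 13 and 7 at week 0, that led by Ecscr had 6 and 25 against 36 and 444, and the larger cluster led by Gm43221 had 164 and 280 against 524 and 96. That led by Rsad2 and Ifit3 had 52 and 44 cells at week 5 against 5 and 4 at week 0.

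The 10 genes spanned a wide range of levels in microglia-like cells. Ly86 was the most abundant, with a mean level above 99.6% of the 10847 genes tested, followed by Cd14 (96.2%), Cd180 (92.1%) and Tlr7 (91.1%). Tlr3 (87.7%), Tlr13 (81.9%), Tlr2 (77.7%) and Tlr4 (69.7%) came next, then Tlr1 (49.3%), and Tlr9 was lowest (9.73%). Several neighbours in this order were not separated. Tlr3 and Tlr7 overlapped at 154 CPM, and Tlr2 at week 5 covered the range of Tlr13, whereas Tlr2 at week 0 lay within a few CPM of Tlr4.

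**Figure D1:**
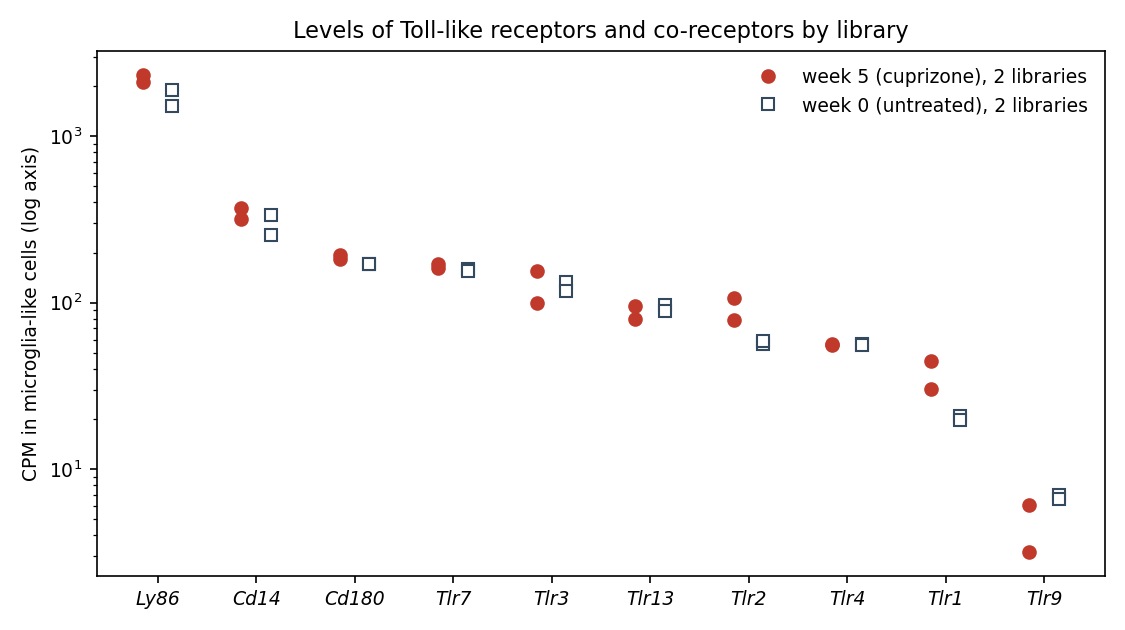
Level of each gene in microglia-like cells, in CPM on a log axis, with 1 point per library (filled circles, 2 cuprizone libraries at week 5; open squares, 2 untreated libraries at week 0) and genes ordered by level. Both week 5 points of Tlr1 and Tlr2 lie above both week 0 points, and the 4 points of Tlr4 lie between 56.0 and 56.7 CPM.

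None of the 10 genes passed the test of week 5 against week 0 in microglia-like cells (edgeR's quasi-likelihood test on UMIs summed per library, Benjamini-Hochberg adjusted p under 0.05), where 3.46% of all tested genes did. DESeq2 and limma-voom also called 0 of the 10. Of all 10847 genes DESeq2 called 307 higher and 23 lower, and limma-voom 342 higher and 42 lower. With no adjustment, 2 of the 10, Tlr1 and Tlr2, had an edgeR p under 0.05, both higher at week 5, where 11.2% of all tested genes did and 7.48% were higher. The median log2 fold change of the 10 was 0.11, beside -0.01 over all tested genes, and 7 of the 10 lay within 0.5 of 0. Both week 5 libraries were above both week 0 libraries for 5 of them (Tlr1, Tlr2, Tlr7, Cd180 and Ly86), as for 18.9% of tested genes, and below for Tlr9 alone, as for 19% of tested genes. The weeks thus did not overlap for 6 of the 10, as for 37.9% of tested genes.

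Tlr1 and Tlr2, which encode the subunits of the receptor for triacylated lipoproteins, had the highest fold changes of the 10. Tlr2 had 107 and 78.7 CPM at week 5 against 56.3 and 58.7 CPM at week 0, from 350 and 222 UMIs against 129 and 265. The weeks did not overlap, and week 5 replicate 1 was the highest library. The log2 fold change of Tlr2 was 0.69 (SE 0.20, 95% interval 0.27 to 1.11, edgeR adjusted p = 0.0739), so it did not pass. Tlr1 had 44.7 and 30.1 CPM at week 5 against 20.9 and 19.7 CPM at week 0, from 146 and 85 UMIs against 48 and 89. Here too the weeks did not overlap and week 5 replicate 1 was highest. The log2 fold change of Tlr1 was 0.89 (SE 0.25, 95% interval 0.37 to 1.41, edgeR adjusted p = 0.0608). Of the 31-base words of Tlr1 transcripts, 18.3% also occur in Tlr6, so the split of reads between these genes is uncertain. Reads come from the 3′ end, and of the 603 shared words in the 3025-base Tlr1 transcript 60 lie in its last 500 bases, the nearest 351 bases from the end. Tlr6, the other partner of TLR2, averaged 25.8 ± 2.42 CPM at week 5 and 24.9 ± 0.494 CPM at week 0 (SD, n = 2 each).

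Both genes lay near the threshold, and their fold changes moved as single libraries were left out. Without week 5 replicate 2 the log2 fold changes were 1.16 for Tlr1 and 0.92 for Tlr2. Without week 5 replicate 1 they were 0.58 and 0.46, and without week 0 replicate 1 they were 0.92 and 0.66. Both genes passed with no filter on low genes (edgeR adjusted p = 0.0154 for Tlr1 and 0.0367 for Tlr2). Tlr2 also passed with the same upper limit on genes per cell in every library (0.0370). With no filter the log2 fold changes were 0.88 (SE 0.25) for Tlr1 and 0.68 (SE 0.21) for Tlr2. The 2 genes thus passed there without a larger fold change or a smaller SE, and the reason was not tested. Over 15 alternatives both stayed higher at week 5, with log2 fold changes from 0.58 to 1.16 for Tlr1 and from 0.46 to 1.08 for Tlr2. With the Spp1-led cluster added, the log2 fold change of Tlr2 was 1.08 (SE 0.29, adjusted p = 0.0838) and that of Tlr1 0.91 (SE 0.27, adjusted p = 0.113). Over all cells Tlr2 had 147 and 79.5 CPM at week 5 against 52.2 and 55.9 CPM at week 0 (log2 fold change 1.07, edgeR adjusted p = 0.0910). In neither of these wider sets did any of the 10 pass, where 3.02% of tested genes rose and 0.326% fell with the Spp1-led cluster, and 2.44% rose and 0.249% fell over all cells.

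Markers of other myeloid cells were read in the same microglia-like cells, relative to total UMIs. The 10 monocyte markers summed to 69.7 and 46.4 CPM at week 5 against 13.1 and 15.02 CPM at week 0, with 4 of 10 above and 2 below in both week 5 libraries, and none at 0 throughout. Their part in the Tlr1 and Tlr2 values was not tested. The 12 markers of border-associated macrophages summed to 266 and 308 CPM at week 5 against 408 and 266 CPM at week 0, with 4 of 12 above and 0 below in both week 5 libraries, and Lyve1 and Clec10a at 0 throughout. Their part was not tested either.

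**Figure D2:**
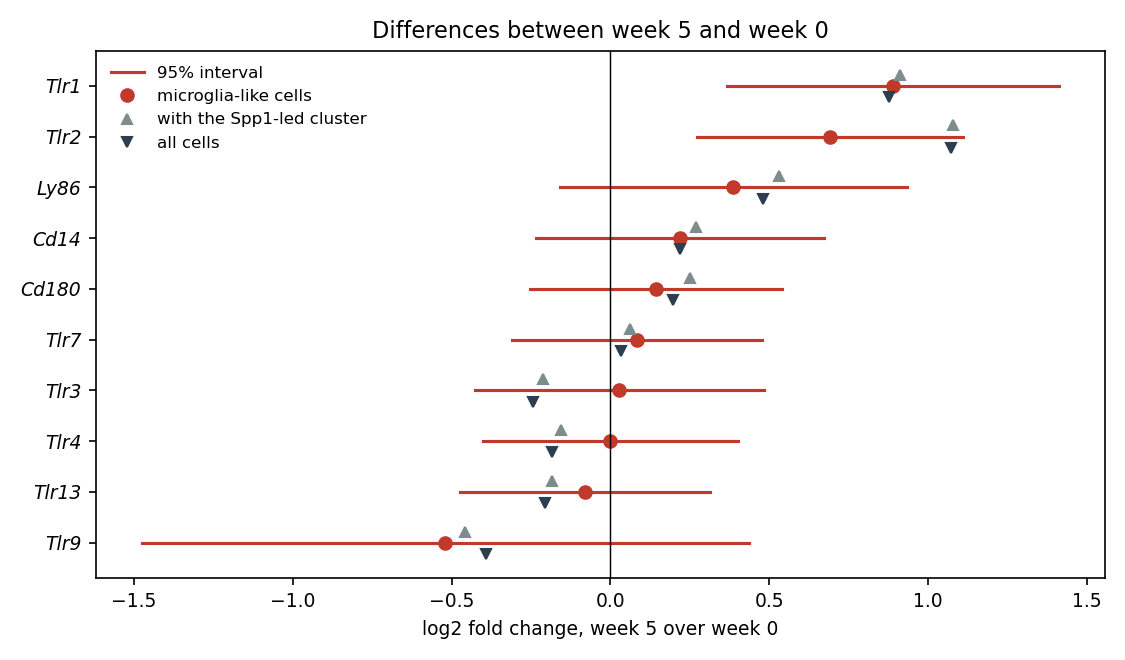
Log2 fold change of each gene, week 5 over week 0, in microglia-like cells (circles, with 95% intervals from the edgeR fit as lines), with the Spp1-led cluster added (upward triangles) and over all cells (downward triangles). The intervals of Tlr1 and Tlr2 lie above 0, and Tlr3 moves to -0.21 with the Spp1-led cluster and -0.24 over all cells.

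The sequences before the starts of Tlr1, Tlr2 and Tlr3 are shown because Tlr1 and Tlr2 had the highest fold changes and Tlr3, which also holds a kappa B match, was level between weeks. They are the 250 bases before the start in RefSeq (GRCm38.p6), 5′ to 3′ on the strand of the gene. RefSeq has a further start for Tlr1, not shown, whose window held none of the motifs searched. Capitals mark matches to the kappa B motif of NF-kB (Tlr2, Tlr3) or to the motif GAGGAAGT of the myeloid factor PU.1 (Tlr1), searched on both strands.
Tlr1, chr5:64933559-64933808, minus strand: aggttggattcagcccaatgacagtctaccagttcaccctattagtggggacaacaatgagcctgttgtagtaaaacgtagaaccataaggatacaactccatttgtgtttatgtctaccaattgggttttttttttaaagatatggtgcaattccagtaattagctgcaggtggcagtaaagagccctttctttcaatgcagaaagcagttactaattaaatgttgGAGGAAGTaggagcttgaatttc
Tlr2, chr3:83841609-83841858, minus strand: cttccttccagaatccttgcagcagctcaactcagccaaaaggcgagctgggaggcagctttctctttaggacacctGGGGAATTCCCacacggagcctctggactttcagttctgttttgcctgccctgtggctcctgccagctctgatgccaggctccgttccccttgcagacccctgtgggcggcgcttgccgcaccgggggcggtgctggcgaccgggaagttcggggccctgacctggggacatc
Tlr3, chr8:45410381-45410630, minus strand: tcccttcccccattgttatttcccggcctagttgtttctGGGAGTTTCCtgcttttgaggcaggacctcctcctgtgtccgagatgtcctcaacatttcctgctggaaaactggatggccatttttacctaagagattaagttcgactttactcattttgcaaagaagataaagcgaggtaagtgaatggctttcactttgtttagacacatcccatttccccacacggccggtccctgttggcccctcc
The capitals of Tlr2 are 2 overlapping kappa B matches, and a further match spans its start and is not capitalised. Of 32851 RefSeq windows reaching from 250 bases before to 50 after a start, 4.51% held a kappa B match and 3.20% a PU.1 match. Among the 7 genes with an entry, the AP-1 motif TGANTCA (7.81% of windows) matched in Tlr9, as did PU.1 after its start, and the interferon-stimulated response element (3.44%) matched in none. Tlr13, Cd180 and Ly86 held none of the 4 motifs in these windows. A match describes letters and was not tested as a site.

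Tlr4, the receptor for lipopolysaccharide, was at nearly the same level in every library. It had 56.0 and 56.7 CPM at week 5 against 56.7 and 56.1 CPM at week 0, from 183 and 160 UMIs against 130 and 253. The weeks overlapped, and the 95% interval of the log2 fold change ran from -0.40 to 0.40 (edgeR adjusted p = 1.00). Over all cells Tlr4 had 43.3 and 50.8 CPM at week 5 against 52.9 and 53.6 CPM at week 0, so that both week 5 libraries were lower (log2 fold change -0.18, edgeR adjusted p = 0.790). Ly96, which encodes the MD-2 subunit that binds lipopolysaccharide beside TLR4, averaged 60.2 ± 14.4 CPM at week 5 and 53.5 ± 2.32 CPM at week 0 (SD, n = 2 each; log2 fold change 0.17, edgeR adjusted p = 0.912).

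None of the endosomal receptors passed, and their intervals leave room for differences in either direction. Tlr7, a receptor for single-stranded RNA, had 170.1 and 161 CPM at week 5 against 158 and 154 CPM at week 0. The week 5 libraries were both higher, by little (log2 fold change 0.08, 95% interval -0.31 to 0.48). Tlr3, which binds double-stranded RNA, had 154 and 99.3 CPM at week 5 against 133 and 117 CPM at week 0. The week 5 libraries were its highest and its lowest, with a log2 fold change of 0.03 (95% interval -0.43 to 0.48) that ran from -0.32 to 0.33 as single libraries were left out. Tlr13, a receptor for bacterial ribosomal RNA in mice, had 95.1 and 79.8 CPM at week 5 against 96.4 and 89.1 CPM at week 0. The weeks overlapped (log2 fold change -0.08, 95% interval -0.47 to 0.32). Over all cells both week 5 libraries were lower for Tlr13 (79.4 and 72.8 against 91.0 and 84.9 CPM), as for Tlr4. The same held for Tlr3 (108 and 87.7 against 120 and 112 CPM), and neither passed (edgeR adjusted p = 0.755 for Tlr13 and 0.726 for Tlr3). Tlr9, which binds unmethylated CpG DNA, rested on few counts, 20 and 9 UMIs at week 5 against 16 and 30 at week 0. Its 6.12 and 3.19 CPM at week 5 lay below the 6.98 and 6.65 CPM at week 0, with a wide interval (log2 fold change -0.52, 95% interval -1.48 to 0.44, edgeR adjusted p = 0.831). Gm45542 overlaps Tlr3 on the other strand.

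The co-receptors were the most abundant of the 10. Ly86 had 2341 and 2106 CPM at week 5 against 1515 and 1884 CPM at week 0. Both week 5 libraries were higher, though the week 0 libraries differed from each other by more than the week 5 libraries did (log2 fold change 0.39, SE 0.26, edgeR adjusted p = 0.725). Cd180 had 182 and 194 CPM at week 5 against 171 and 169.7 CPM at week 0. The weeks did not overlap, with a log2 fold change of 0.14 (95% interval -0.25 to 0.54, edgeR adjusted p = 0.927), and Mast4 overlaps this gene on the other strand. Cd14 had 316 and 370.1 CPM at week 5 against 253 and 335 CPM at week 0. The weeks overlapped, with a log2 fold change of 0.22 (95% interval -0.24 to 0.67, edgeR adjusted p = 0.868).

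In the mouse genome (GRCm38, GENCODE M21) Tlr1 lies at chr5:64924679-64933563, Tlr2 at chr3:83836272-83841767 and Tlr3 at chr8:45395665-45411080, all on the minus strand. Tlr4 lies at chr4:66827584-66930284 and Tlr9 at chr9:106222598-106226883 on the plus strand. The X chromosome holds Tlr7 (167304929 to 167330558, minus strand) and Tlr13 (106143204 to 106160493, plus strand), and chromosome 13 holds Ly86 (37345208 to 37419036) and Cd180 (102693558 to 102739629), both on the plus strand. All are annotated as protein-coding.

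The share of cells with a UMI was read after thinning each cell to 1000 UMIs, in 662 and 723 cells at week 5 and 754 and 828 at week 0. Ly86 was found in 79.5% and 79.1% of cells at week 5 against 66.0% and 80.3% at week 0, and Cd14 in 26.3% and 27.5% against 21.1% and 26.6%. Tlr2 was found in 8.61% and 5.81% of cells at week 5 against 5.70% and 5.19% at week 0. Its exact binomial intervals nearly coincided in week 5 replicate 2 (4.22% to 7.77%) and week 0 replicate 1 (4.16% to 7.61%). Tlr1 was found in 3.47% and 3.32% at week 5 against 2.39% and 1.33% at week 0, and the exact binomial intervals of week 5 replicate 2 (2.14% to 4.90%) and week 0 replicate 1 (1.42% to 3.75%) overlapped. With all UMIs Tlr2 was found in 27.0% and 18.3% at week 5 against 11.9% and 21.96% at week 0, where depth enters. In 58 thinned cells of oligodendrocyte-like, choroid plexus or ependymal and T or NK cell-like clusters, which should lack most of these receptors, Tlr1, Tlr2, Tlr9, Tlr13 and Cd180 had no UMI. Tlr3 was in 6.90% of those cells and Ly86 in 12.1%, against 12.2% and 77.3% of 2967 thinned microglia-like cells. These shares are not even over the non-myeloid clusters. Before thinning, all 7 of their Tlr3 UMIs and 60 of their 72 Ly86 UMIs lay in the 22 choroid plexus or ependymal cell-like cells. The median depth before thinning was 3566 UMIs in the non-myeloid cells and 3152.5 in the microglia-like cells.

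Levels by cluster describe where the members were found, with no test, because all genes entered the clustering. In the Spp1-led cells of week 5 replicate 1, Tlr2 stood at 162 CPM (exact Poisson interval 147 to 178) against 100.03 CPM (89.8 to 111) in the microglia-like cells of that library. Tlr3, Tlr4 and Tlr13 were lower in those Spp1-led cells: 25.6 against 144 CPM for Tlr3, 13.7 against 52.3 CPM for Tlr4 and 37.0 against 88.9 CPM for Tlr13. Tlr7 also stood lower there, at 94.3 against 159 CPM, and Ly86 stood at 2234 against 2187 CPM. Tlr1, unlike Tlr2, stood lower, at 29.0 against 41.7 CPM, with overlapping intervals (22.9 to 36.3 and 35.2 to 49.1). Cd14 stood at 225 against 295 CPM. In week 5 replicate 2, with 26 Spp1-led cells, Tlr2 had 109 against 78.0 CPM (intervals 64.8 to 173 and 68.1 to 89.0), Tlr3 24.3 against 98.4 CPM and Ly86 1678 against 2088 CPM. Tlr1 had 12.2 against 29.9 CPM in that library, from 2 UMIs in the Spp1-led cells, and Cd14 334 against 367 CPM. The order of Ly86 thus turned between the libraries, while that of Tlr1, Tlr2, Tlr3 and Cd14 did not. These intervals cover counting error only.

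Within week 5, the Ccl4-led cluster had 135 and 159 CPM of Tlr2, against 169 and 47.5 CPM in the cluster led by the interferon-induced genes Rsad2 and Ifit3, so the order of these clusters turned between libraries. Tlr3 stood at 69.8 and 45.7 CPM in the Ccl4-led cells of week 5 and at 197 and 151 CPM in the Rsad2-led cells. In the Crybb1-led cluster, which all libraries filled with 81 to 222 cells, Tlr2 had 67.6 and 75.1 CPM at week 5 against 53.0 and 55.0 CPM at week 0. The week 5 values were higher, but the exact Poisson intervals overlapped between weeks (54.7 to 82.7 CPM in week 5 replicate 1 and 37.5 to 72.7 CPM in week 0 replicate 1). In the larger Gm43221-led cluster Tlr2 had 67.4 and 35.0 CPM at week 5 against 52.0 and 26.6 CPM at week 0, and the weeks overlapped. In the Slc2a5-led cluster it had 85.5 and 71.1 CPM at week 5 against 73.1 and 63.0 CPM at week 0, and the weeks overlapped. Pooled over libraries, the 79 border-associated macrophage-like cells had 57.8 CPM of Tlr1, 118 CPM of Tlr2, 46.3 CPM of Tlr3 and 64.8 CPM of Cd180, against 28.4, 74.6, 125 and 177 CPM over all microglia-like cells. By library, Tlr2 had 113 and 216 CPM there at week 5 against 46.5 and 27.7 CPM at week 0, from 4 and 1 UMIs at week 0. The microglia-like cells had 58.3 and 60.3 CPM of Tlr2 at week 0, so the order turned between weeks. Tlr1 had 93.2 and 9.40 CPM in the macrophage-like cells at week 5 against 23.2 and 83.2 CPM at week 0. Tlr3 and Cd180 were lower there than in microglia-like cells in every library.

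**Figure D3:**
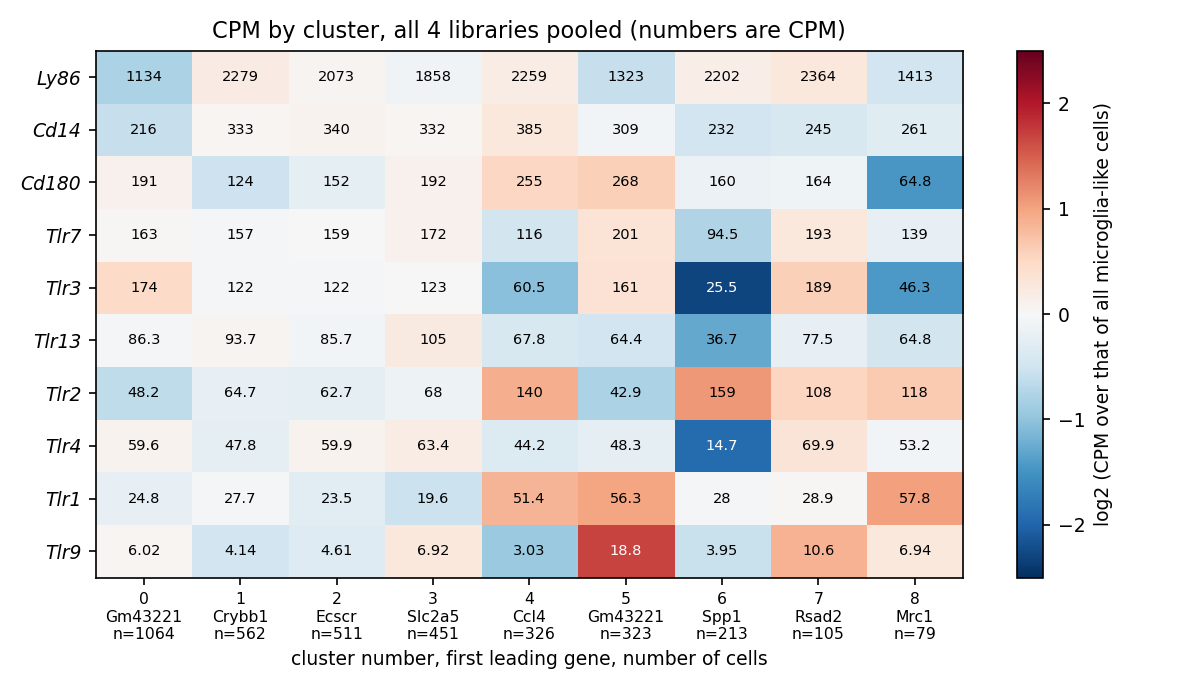
Level of each gene (rows) in the 9 clusters of at least 50 cells (columns, with the first leading gene and number of cells), pooled over libraries. Printed numbers are CPM and colour is the log2 ratio to all microglia-like cells; Tlr2 is high and Tlr3 low in the Ccl4-led (140.4 and 60.5 CPM) and Spp1-led (159 and 25.5 CPM) clusters.

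Genes whose levels ran most like a member over these 9 clusters are given as a description, since clusters share libraries and depth. The chemokine gene Cxcl16 (r = 0.972), Cd52 and Tpd52 ran closest to Tlr2, and Gsdmd, which encodes the pore-forming protein gasdermin D (r = 0.985), Nipa2 and Tmod3 to Tlr3. Ctss, the gene of the lysosomal protease cathepsin S (r = 0.980), ran closest to Ly86, Actr2 (0.980) to Tlr4 and Ythdf2 (0.980) to Tlr13. The closest were Zfp800 for Tlr7 (0.973), Tns3 for Cd180 (0.964), Jagn1 for Cd14 (0.945) and Neat1 for Tlr1 (0.833).

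The rest of the pathway was read in 8 lists of 95 genes, of which 76 were tested, 9 rose and 1 fell. Beside them, 3.05% of all tested genes rose and 0.406% fell. Among 5 other Toll-like receptors, Tlr5, the flagellin receptor, fell (3.67 and 4.96 CPM at week 5 against 10.9 and 15.3 CPM at week 0; log2 fold change -1.64, SE 0.38, edgeR adjusted p = 0.0203). Tlr12 averaged 38.9 ± 5.93 CPM at week 5 and 37.1 ± 5.49 CPM at week 0 (SD, n = 2 each), and Tlr8 and Tlr11, with 0 and 4 UMIs in all microglia-like cells, were not tested. Over all cells Tlr8 had 16 and 3 UMIs at week 5 against 7 and 0 at week 0. The call of Tlr5 was lost without week 5 replicate 1 (adjusted p = 0.135), without week 0 replicate 2 (0.271), with DESeq2 (0.122) and with thinned cells (0.163).

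Proteins that serve the receptors at the surface or in endosomes mostly did not pass. Of 4 tested accessory genes 1 rose, Scimp, which encodes an adaptor that couples receptors to Src-family kinases (21.7 and 18.1 CPM at week 5 against 5.23 and 3.10 CPM at week 0; log2 fold change 2.34, SE 0.35, edgeR adjusted p = 0.000467), though not with thinned cells (0.0584). Rtn4 had a log2 fold change of 0.03. None of the 11 tested endosomal chaperone and processing genes passed with edgeR, with a median of 0.07. With DESeq2 Ctss passed, where 307 of 10847 genes rose and 23 fell. So did Ctsb (edgeR log2 fold change 0.72) and Ctsl (0.66), both named after their values were seen. Ctss, at 8234 ± 461 CPM at week 5 and 5309 ± 219 CPM at week 0 (SD, n = 2 each), had a log2 fold change of 0.63 (edgeR adjusted p = 0.416), and Lgmn one of -0.03.

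Of 5 tested nucleases that make or remove ligands, Pld3, a lysosomal exonuclease, rose (175 and 121 CPM at week 5 against 76.3 and 80.4 CPM at week 0; log2 fold change 0.92, SE 0.21, edgeR adjusted p = 0.0174). It did not pass without week 5 replicate 1 (0.229), over all cells (0.0686), with thinned cells (0.243) or with no cell filter (0.0583). The median of the 5 was 0.56, but Rnaset2a and Rnaset2b, both in the list, are near copies that may share reads and do not count as separate members. Pld4 (0.28) and Rnaset2a (0.56) did not pass.

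None of the 19 tested adaptors and kinases passed, with a median of 0.16, and Tab2 (-0.12) and Peli1 (0.16) lay near 0. Myd88, named after its values were seen, averaged 34.0 ± 2.497 CPM at week 5 and 36.5 ± 1.66 CPM at week 0 (SD, n = 2 each; edgeR adjusted p = 0.963). Of 10 tested transcription factors, Irf7, the interferon regulatory factor 7 gene, rose (44.1 and 39.4 CPM at week 5 against 4.80 and 5.32 CPM at week 0; log2 fold change 3.02, SE 0.27, edgeR adjusted p = 2.02e-06). Irf8 (0.02) and Jun (-0.79, edgeR adjusted p = 0.0562) did not pass. Jun did pass, as lower, with library size only, DESeq2, limma-voom, no gene filter, and the same upper limit on genes per cell in every library. Of 15 tested negative regulators, Cd300lf, an inhibitory receptor gene, rose (20.2 and 24.8 CPM at week 5 against 1.31 and 1.77 CPM at week 0; log2 fold change 3.77, SE 0.39, edgeR adjusted p = 8.80e-06). Its week 0 values rest on 3 and 8 UMIs. Nfkbia, which encodes the NF-kB inhibitor IkB alpha, had 154.9 ± 14.0 CPM at week 5 and 95.5 ± 18.5 CPM at week 0 (SD, n = 2 each). Its log2 fold change was 0.69 (edgeR adjusted p = 0.0754). It passed with no gene filter and with the same upper limit on genes per cell in every library. Zfp36 had a log2 fold change of 0.09.

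Of 18 inducible target genes 9 were tested, with a median log2 fold change of 2.41, and 5 rose, all cytokine or chemokine genes. These were Ccl3 (3.10), Ccl4 (2.94), Ccl5 (4.65), Cxcl10 (6.34) and Il1b (2.41). Few counts lie behind some of them, with week 0 UMIs of 2 and 6 for Ccl5, 7 and 1 for Cxcl10 and 3 and 18 for Il1b. Cxcl10 had 188 and 11.0 CPM at week 5 against 3.05 and 0.222 CPM at week 0, with week 5 replicate 1 far above every other library, and its log2 fold change was 3.07 without week 5 replicate 1, 7.27 without week 5 replicate 2, and 8.60 and 5.02 without week 0 replicates 1 and 2. It did not pass with DESeq2 (adjusted p = 0.101) or limma-voom (0.270), nor did Ccl4 with DESeq2 (0.171) or Il1b without week 5 replicate 1 (0.0789). Without week 0 replicates 1 and 2 the log2 fold changes were 4.03 and 2.41 for Ccl3 and 4.57 and 2.14 for Ccl4, and for Il1b 3.57 without week 0 replicate 2. Cd86 (0.24) and Cd80 (-0.21), costimulatory ligands, did not pass. Nor did Tnf (log2 fold change 0.99, edgeR adjusted p = 0.283) and Il6 (-0.25, 0.896), both named after their values were seen. Of the untested genes, Il12b, Il10, Cxcl1, Ptgs2, Ifnb1 and Nos2 were not listed for any library. Cxcl2 had 0 UMIs in microglia-like cells, and Acod1 and Cd40 were too low to test. These lists were chosen with results of these libraries known, so their counts are not independent evidence of direction. The Ccl4-led and Rsad2-led clusters held more cells in both week 5 libraries, and their part in the rises of these lists was not tested.

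**Figure D4:**
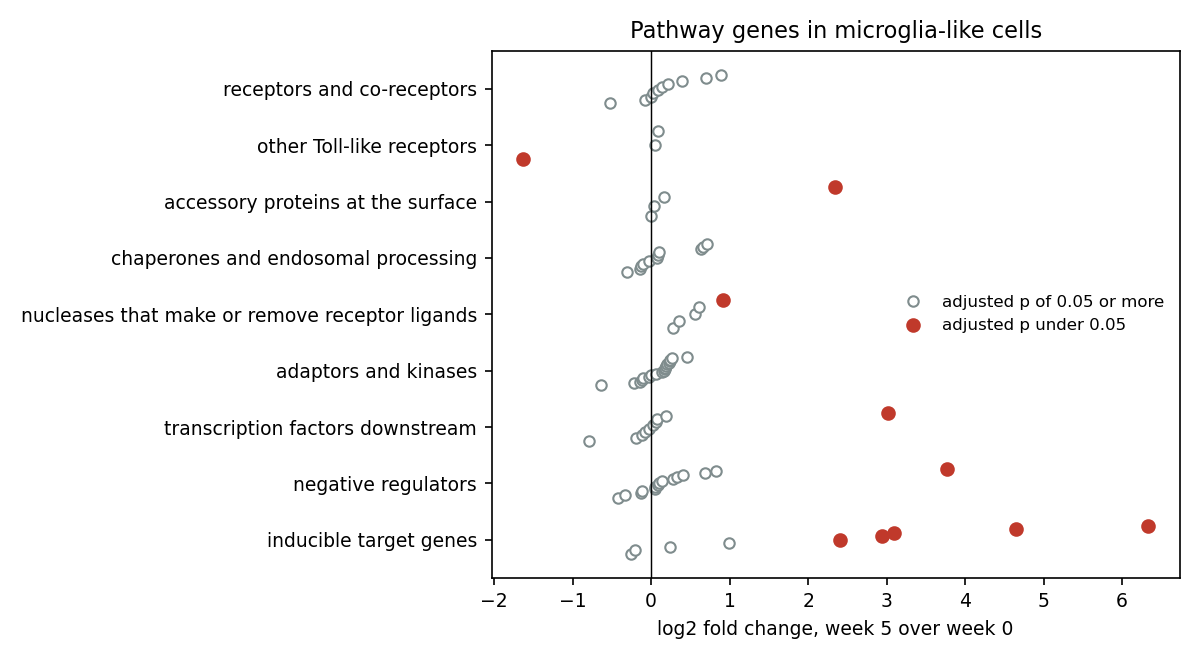
Log2 fold change, week 5 over week 0, of each tested gene in microglia-like cells, for the 10 receptors and co-receptors (top) and 8 lists of pathway genes (filled circles, edgeR adjusted p under 0.05; open circles, all others). None of the 10 is filled, and 5 of the 9 tested target genes are, all to the right of 0.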

How the data were processed

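Per the labels, CD11b-positive cells were profiled by droplet 3′ single-cell RNA sequencing. The tables deposited by the authors hold raw UMI counts (whole numbers, not normalized) of each gene in each barcode. Per the submitters' processing notes, STAR, Cell Ranger 3.0.0, Seurat 4 and mm10 are named, but their roles are not. The choice of 1000 barcodes per table is not stated in these sources, and the highest number of genes per cell differed between tables (3999 and 2996 at week 5, 2999 and 6615 at week 0).

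Barcodes under 500 genes or over 10% mitochondrial UMIs were removed (272 of 4000), and doublets marked by scrublet were dropped. Cells were clustered in scanpy 1.11.5 (2000 variable genes, 30 components, 15 neighbours, Leiden resolution 1), and clusters were named from marker lists, by a rule settled once the clusters had been seen. UMI counts were summed per library over microglia-like cells and tested with edgeR 4.0.16 in R 4.3.3 (quasi-likelihood, TMM factors, filterByExpr, Benjamini-Hochberg over all 10847 genes). CPM are counts over effective library size in these tests, and over total UMIs for clusters, classes and marker sums. DESeq2 1.42.0, limma 3.58.1, other scalings, filters, cells and libraries left out were alternatives. The test was tested on simulated data. Intervals are 95% and cover counting error only where they are exact, and the limit for a share of 0 uses 3 counts.

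Named genes are all 10 members and, in each pathway list, every gene that passed and the 2 most abundant that did not. Any other pathway gene named is marked as untested or as named after its values were seen. For likeness, the named genes are those of highest Pearson r of log2(CPM + 5) over clusters of at least 50 cells. The members and lists were chosen with earlier results of these data known. Promoters of Tlr4, Tlr7 and Cd14 were not used here.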

Additional observations from a re-analysis of the deposited data

How the results depend on the processing

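Of the 10 genes, 0 passed in the analysis as reported. With every gene kept 2 passed, where 467 of 15371 genes rose and 82 fell. With the same upper limit on genes per cell in every library 1 passed, where 371 of 10659 genes rose and 56 fell. With 1 library left out, the lone library of that week is assumed to vary like the others. Whether the labels' replicate numbers mark pairs is not known. The replicate differences of the weeks correlated at -0.0937 over 10847 genes, which cannot settle it. Each week gives 1 such difference, and replicate 1 was the deeper at week 5 but replicate 2 at week 0. With the replicate number as a block 1 gene passed, Tlr1 (log2 fold change 0.84, SE 0.26, edgeR adjusted p = 0.0378). Tlr1 passed there with a smaller fold change and a larger SE than in the analysis as reported. The same fit called 338 of 10847 genes higher and 51 lower. With no gene filter Tlr1 was at 0.88 (adjusted p = 0.0154) and Tlr2 at 0.68 (0.0367), and with the shared upper limit Tlr2 was at 0.72 (0.0370). As single libraries were left out, Tlr1 ran from 0.58 to 1.16 and Tlr2 from 0.46 to 0.92. Of 76 tested pathway genes 10 passed, where 331 of 10847 genes rose and 44 fell. With cells thinned to 1000 UMIs 5 of 66 passed, where 102 of 8320 genes rose and 0 fell, so calls were fewer over all genes too.

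Genes near 0 changed sign. Tlr3, at 0.03, was at -0.080 with library size only, -0.013 with limma-voom, -0.010 with the block, -0.24 over all cells and with no cell filter, -0.21 with the Spp1-led cluster and from -0.32 to 0.33 as single libraries were left out. Tlr4 was at 0.0060 with RLE factors, 0.0057 with DESeq2, 3.7e-05 with limma-voom and from -0.0078 to 0.015 as single libraries were left out, and lower at -0.10 with library size only, -0.16 with the Spp1-led cluster, -0.18 over all cells and -0.19 with no cell filter. Tlr7 was at -0.018 with library size only and -0.12 with thinned cells. Tlr13 was at 0.040 with thinned cells and up to 0.063 as single libraries were left out. The cause was not tested. Library size as the only scaling moved the median of all genes to -0.11.

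The shares of cells with a UMI moved with depth. With all UMIs, week 5 minus week 0 was 5.91 percentage points for Tlr1, 5.73 for Tlr2, 1.71 for Tlr3, 0.854 for Tlr4, 3.22 for Tlr7, -0.714 for Tlr9 and 3.15 for Cd180, against 1.54, 1.76, -1.08, -0.354, -1.24, -0.347 and -0.0870 thinned. Leaving out the Spp1-led cluster gives the values as reported, and adding it was chosen after seeing the data. Tlr9 was too low to test in thinned cells. Tlr9 rested on 9 to 30 UMIs a library, and its interval is wide.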
